A study of Mus musculus with 120 samples.

Results

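The 10 genes described here mark the Purkinje cell and were followed in brain tissue of mice that model the inherited ataxia SCA1: Pcp2, Rgs8, Calb1, Car8, Slc1a6, Ppp1r17, Homer3, Itpka, Stac and Skor2. They were chosen by name for their known place in Purkinje cells, but with earlier results of these data known. Counts of members called are therefore a description and not independent support. All 10 were matched by symbol among the 55573 genes of the count tables. SCA1 (spinocerebellar ataxia type 1) is caused by a lengthened polyglutamine tract in ataxin-1. The study sequenced polyadenylated RNA of C57BL/6J mice of 3 genotypes at 10 and 26 weeks of age, with 4 mice of each genotype at each age. WT mice carry no expanded allele. 175Q mice carry the Atxn1 175Q knock-in allele in its own locus, opposite a normal allele, so it is not limited to a cell type by a promoter. In 175QK772T mice the expanded allele also carries K772T, which alters the signal that brings ataxin-1 into the nucleus, and the design asks how the changes in 175Q mice depend on that signal. Each mouse gave 5 regions: cerebellum, cortex, hippocampus and striatum at both ages, with brainstem at 10 weeks and medulla at 26 weeks, for 120 libraries in 30 groups of 4.

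Purkinje cells are the large inhibitory neurons that carry the output of the cerebellar cortex, and they are a site of damage in several inherited ataxias. Their firing and plasticity rest on a glutamate receptor, mGluR1, which drives release of calcium from internal stores through inositol trisphosphate (IP3), and many genes that mark the cell act on that pathway or buffer the calcium. Among the 10 genes, Calb1 encodes the calcium buffer calbindin, Car8 a carbonic anhydrase relative that binds the IP3 receptor, Itpka a kinase that phosphorylates IP3, and Homer3 a scaffold that links mGluR1 to the IP3 receptor. Rgs8 and Pcp2 encode regulators of G protein signalling, Ppp1r17 a phosphatase inhibitor, Slc1a6 the glutamate transporter EAAT4, Stac an adaptor of calcium channels, and Skor2 a transcriptional corepressor of developing Purkinje cells.

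Total counts ran from 68241854 to 103542385 per library at 10 weeks and from 28030190 to 57281437 at 26 weeks. The ages were prepared and sequenced as 2 batches, so age and batch cannot be told apart. The 26-week column names also give another repeat length than the genotype field, so the same length at both ages is not certain. In the cerebellum, mitochondrial genes took 4.08 to 4.87% of counts at 10 weeks and 3.89 to 5.01% in 10 libraries at 26 weeks, but 13.5% in the 26-week library of 175Q replicate 4 and 11.5% in that of 175QK772T replicate 2. Both of these libraries also stood apart in several members, so the 26-week calls in cerebellum are given with and without them. Atxn1 itself was at 49.2 ± 1.63, 54.4 ± 2.22 and 61.9 ± 1.72 CPM, counts scaled to library size (mean ± SD, n = 4) in WT, 175Q and 175QK772T cerebellum at 10 weeks; a knock-in leaves the transcript in place, so this level does not check the repeat. In GENCODE annotation of GRCm38, exons of Pcp2 share 941 bases with Pet100 on the other strand and those of Homer3 share 874 bases with Ddx49, while Stac and Rgs8 share 299 and 70 bases with antisense genes. Counting used the strand at 10 weeks; at 26 weeks its setting is not given in the sources used here, and reads of such pairs there cannot be told apart.

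Promoter sequence was matched for 6 of the 10 genes in RefSeq tables of GRCm38.p6 (Pcp2, Rgs8, Slc1a6, Homer3, Itpka and Stac; not for Calb1, Car8, Ppp1r17 and Skor2). The 250 bases before the start site are printed for 3 genes whose patterns differ in the results that follow: Pcp2, which was near 0 outside the hindbrain, Itpka, which was higher in the forebrain than in the cerebellum, and Slc1a6, which fell in the cerebellum but rose in the forebrain of 175Q mice. Each reads 5′ to 3′ on the gene's strand, with CG dinucleotides in capitals. The windows are chr8:3625548-3625797 on the minus strand for Pcp2, chr2:119742087-119742336 on the plus strand for Itpka and chr10:78780246-78780495 on the plus strand for Slc1a6.
Pcp2: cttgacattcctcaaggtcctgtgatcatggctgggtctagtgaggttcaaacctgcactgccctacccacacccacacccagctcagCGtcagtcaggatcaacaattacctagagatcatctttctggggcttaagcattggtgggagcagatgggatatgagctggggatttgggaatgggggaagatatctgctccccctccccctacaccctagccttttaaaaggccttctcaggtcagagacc
Itpka: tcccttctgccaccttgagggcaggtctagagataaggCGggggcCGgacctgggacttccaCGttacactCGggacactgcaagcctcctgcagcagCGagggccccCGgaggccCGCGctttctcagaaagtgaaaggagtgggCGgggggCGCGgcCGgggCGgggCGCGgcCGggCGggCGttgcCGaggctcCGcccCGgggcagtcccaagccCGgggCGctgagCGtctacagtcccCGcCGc
Slc1a6: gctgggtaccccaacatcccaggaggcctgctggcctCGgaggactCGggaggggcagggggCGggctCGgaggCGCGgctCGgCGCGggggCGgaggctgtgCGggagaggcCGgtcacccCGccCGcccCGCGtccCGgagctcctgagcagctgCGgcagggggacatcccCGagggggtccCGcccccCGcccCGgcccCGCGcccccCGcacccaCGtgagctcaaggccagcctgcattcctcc
The Pcp2 window held 1 CG dinucleotide and 52.8% G and C. The Itpka and Slc1a6 windows held 26 each, with 72.8% and 78.8% G and C, against medians of 6 and 52.4% over all 32851 windows of that length. Letters of 2 factors were searched on both strands: TGAATGAA and TGAATGGA, bound by Capicua, the repressor that partners ataxin-1, and TAGGTCA and TGGGTCA, bound by RORalpha, a transcription factor of Purkinje cells. They occur in 1.081%, 1.014%, 2.234% and 3.242% of all windows. Of 11 windows of the 6 genes, counting alternative starts, 1 held such letters: TGGGTCA on the opposite strand, 72 bases before a downstream alternative start of Pcp2. A match is a description of letters and not a site.

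In WT cerebellum at 10 weeks the members spanned a wide range of levels, compared per length as RPKM, counts scaled for gene length and library size (mean ± SD, n = 4). Car8 was highest at 490 ± 10.2, followed by Calb1 at 215 ± 7.48, Pcp2 at 188 ± 22.5 and Rgs8 at 162 ± 9.96. Ppp1r17 at 130 ± 3.99, Homer3 at 92.4 ± 9.81, Slc1a6 at 64.1 ± 3.85 and Itpka at 34.1 ± 2.61 came next. Stac at 6.02 ± 0.235 and Skor2 at 2.85 ± 0.270 were far below the rest. The mean ± SD ranges of Calb1 and Pcp2 overlapped, as did those of Pcp2 and Rgs8, so these neighbours are not ordered beyond their spread. At 26 weeks the order was the same, from 472 RPKM for Car8 to 2.41 for Skor2, and Rgs8 at 148 ± 18.8 overlapped Ppp1r17 at 144 ± 11.1.

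The members marked the cerebellum, with 1 exception. In WT mice at 10 weeks all 10 were higher in cerebellum than in brainstem (68.2% of all genes tested were called and 32.2% were higher), and 9 of 10 were higher than in cortex, hippocampus or striatum (69.4%, 66.8% and 69.5% called; 35.6%, 33.7% and 34.5% higher). The 9 were Pcp2, Rgs8, Calb1, Car8, Slc1a6, Ppp1r17, Homer3, Stac and Skor2. In each forebrain set, at either age, only 8 of the 10 members passed the low-count filter. Pcp2 and Skor2, near 0 in forebrain, entered these tests through hindbrain libraries alone. Their calls against forebrain, at either age, are thus a description and not a test. Itpka was the exception: it was at 104 ± 4.37 RPKM in cortex, 117 ± 5.10 in hippocampus and 73.0 ± 5.62 in striatum, against 34.1 ± 2.61 in cerebellum and 1.01 ± 0.110 in brainstem. Its log2 difference, cerebellum minus the other region, was -1.59 ± 0.06 against cortex, -1.77 ± 0.06 against hippocampus and -1.07 ± 0.06 against striatum (adjusted p at most 1.29e-11).

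**Figure D1:**
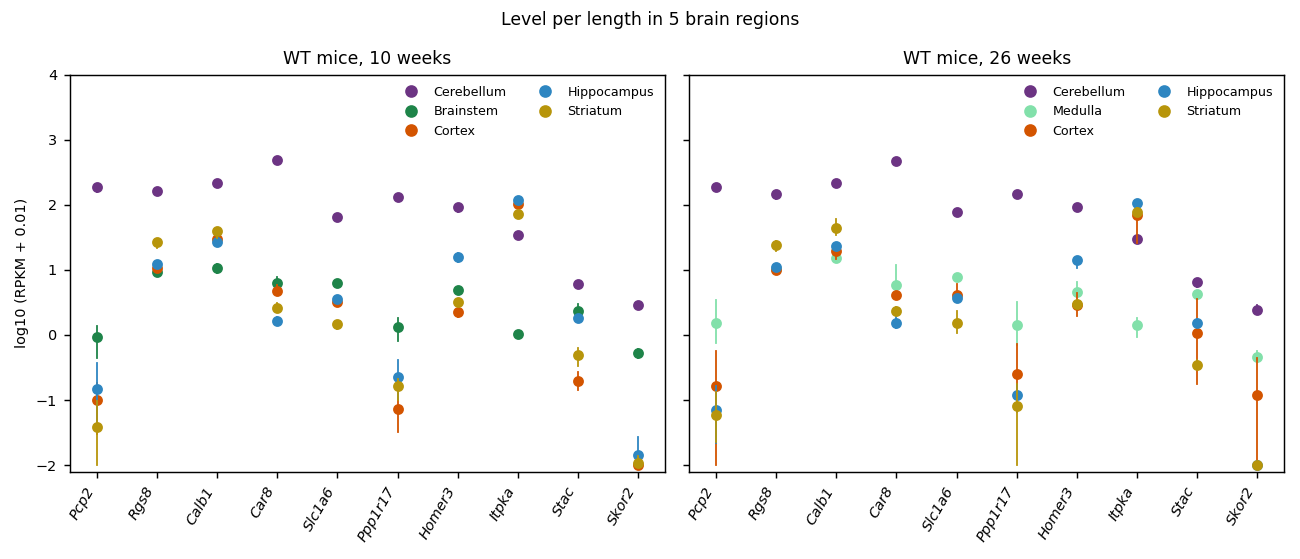
WT levels of the 10 genes in each region at 10 and 26 weeks, as log10 of RPKM + 0.01; points are means of 4 mice and lines run from the lowest to the highest library. Cerebellum is the highest region for every gene but Itpka, which was at 117 RPKM in hippocampus and 34.1 in cerebellum at 10 weeks.

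Pcp2, Ppp1r17 and Skor2 came closest to being confined to the cerebellum among forebrain regions. In the 12 WT forebrain libraries of 10 weeks, Pcp2 had 0 to 48 read pairs a library, Ppp1r17 3 to 52 and Skor2 0 to 4. The other members were not silent elsewhere: Calb1 was at 38.9 ± 5.21 RPKM in striatum and 30.2 ± 1.84 in cortex, Rgs8 at 26.4 ± 2.99 in striatum and Homer3 at 15.5 ± 2.39 in hippocampus. At 26 weeks 9 members were again higher in cerebellum than in medulla (62.3% of genes called, 29.6% higher), and 9 were higher than in cortex, hippocampus or striatum (57.8%, 59.3% and 61.8% called; 28.1%, 29.1% and 30.3% higher). Against medulla the gene not called was Stac, with a log2 difference of 0.61 ± 0.58 (adjusted p = 0.378), and against the forebrain Itpka was lower by 1.19 to 1.86 on the log2 scale. The Stac result is not an equal level: with 1 mouse left out, 37 to 40 pairs of member and region were called, against 39 with all mice.

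In the cerebellum of 10-week 175Q mice 9 of the 10 genes fell against WT, where 11.4% of all genes tested were called and 6.81% were called lower. The exception was Skor2. The median log2 fold change of the 10 was -0.58, against 0.01 over all genes. Fold changes, standard errors and Benjamini-Hochberg adjusted p-values come from edgeR's quasi-likelihood test. In whole tissue, fewer Purkinje cells and less RNA per Purkinje cell cannot be told apart.

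Both G protein regulators fell. Rgs8 was at 1507, 1762, 1575 and 1678 CPM in the WT libraries, 839, 911, 890 and 948 in 175Q and 1275, 1252, 1333 and 1377 in 175QK772T. The 3 groups did not overlap, and all 4 175QK772T libraries lay between the others. Rgs8 fell by 0.86 on the log2 scale in 175Q (SE 0.04, adjusted p = 1.36e-08), to 55.01% of the WT mean. Pcp2 was at 296, 382, 358 and 400 CPM in WT, 238, 249.4, 237 and 207 in 175Q and 311, 317, 309 and 347 in 175QK772T. It fell by 0.62 in 175Q (SE 0.08, adjusted p = 6.66e-05) without overlap, while the 175QK772T libraries lay inside the WT range.

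The genes of calcium and IP3 signalling fell together. Car8 was at 1914, 1965, 2013 and 1999 CPM in WT, 1299, 1382, 1319 and 1274 in 175Q and 1641, 1692, 1765 and 1702 in 175QK772T, 3 ranges without overlap. It fell by 0.58 in 175Q (SE 0.04, adjusted p = 2.26e-07). Itpka was at 56.98, 67.5, 67.6 and 67.3 CPM in WT, 37.3, 40.0, 38.5 and 40.6 in 175Q and 52.6, 53.3, 56.1 and 58.8 in 175QK772T. It fell by 0.73 (SE 0.05, adjusted p = 2.41e-07), with WT replicate 1 the lowest of its group but still above every 175Q library. Calb1 ranged from 1058 to 1131 CPM in WT and from 731 to 782 in 175Q and fell by 0.53 (SE 0.04, adjusted p = 7.03e-07). Homer3 ranged from 280 to 361 and from 207 to 237 and fell by 0.58 (SE 0.06, adjusted p = 2.42e-05). Neither gene's 175Q range met its WT range.

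Of the others, Stac, the least abundant called member, was at 15.6, 17.4, 16.8 and 16.8 CPM in WT, 8.47, 10.0, 9.43 and 8.68 in 175Q and 13.3, 12.8, 15.3 and 13.8 in 175QK772T. It fell by 0.86 (SE 0.07, adjusted p = 2.83e-06), the same log2 size as Rgs8. Ppp1r17 and Slc1a6 showed the smallest called falls. Ppp1r17 ranged from 232 to 246 CPM in WT and from 174 to 189 in 175Q, a fall of 0.41 (SE 0.04, adjusted p = 7.74e-06). Slc1a6 was at 132, 144, 153 and 147 CPM in WT, 114, 108, 105 and 119 in 175Q and 133, 127, 143 and 144 in 175QK772T, a fall in 175Q of 0.37 (SE 0.05, adjusted p = 0.000249). Skor2 was at 8.19, 10.4, 9.09 and 9.67 CPM in WT, 8.17, 8.35, 8.39 and 8.85 in 175Q and 8.84, 8.02, 9.40 and 9.01 in 175QK772T. These groups overlapped, and its log2 fold change in 175Q was -0.14 ± 0.08 (adjusted p = 0.266).

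**Figure D2:**
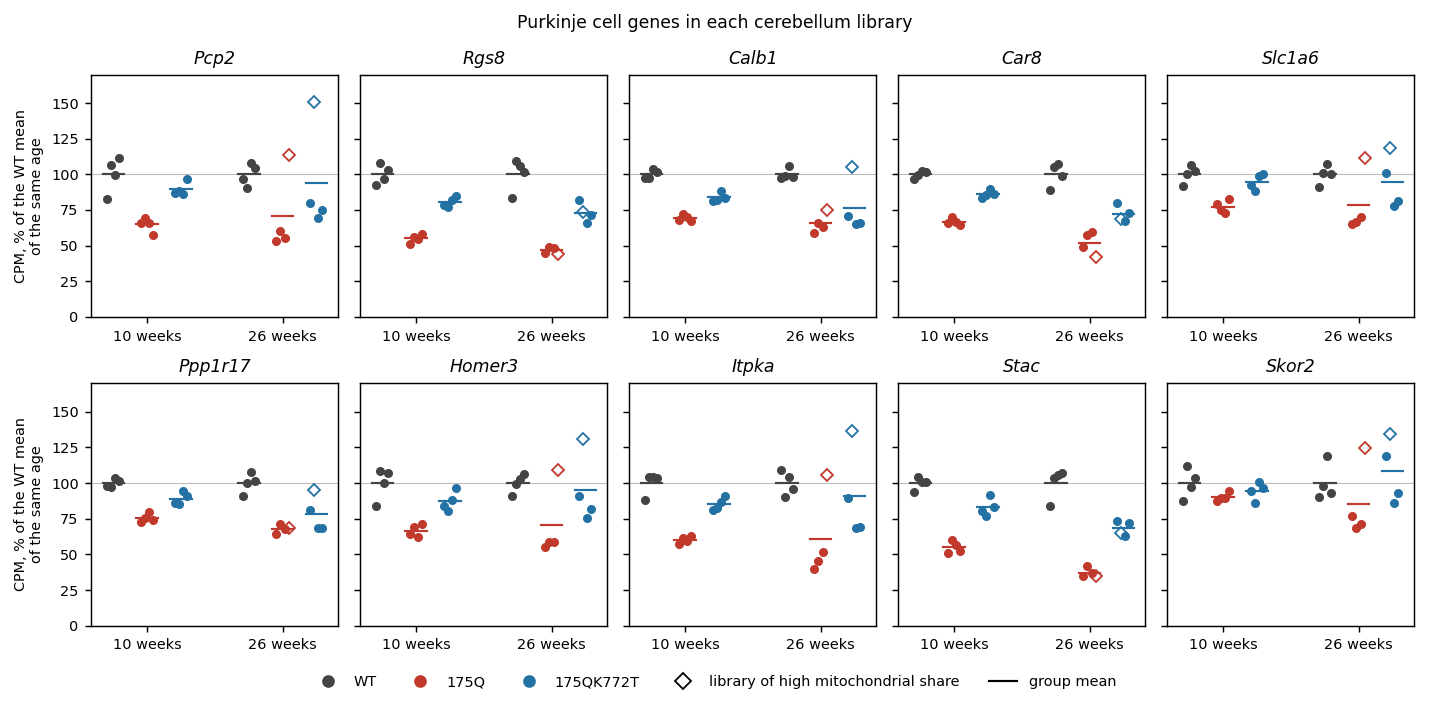
CPM of the 10 genes in each cerebellum library as a percent of the WT mean of the same age, with the group mean as a line and the 2 libraries of high mitochondrial share as open diamonds. At 10 weeks the 175Q points of 9 genes lie below all WT points; the share of all genes that separate in this way was not computed. At 26 weeks the diamonds lie above the rest of their group in Pcp2, Calb1, Slc1a6, Homer3, Itpka and Skor2.

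With K772T the falls were smaller. Against WT, 175QK772T cerebellum at 10 weeks had 5 of 10 members called, all lower (4.04% of genes called, 2.48% lower): Rgs8 by 0.29, Calb1 by 0.26, Car8 by 0.22, Itpka by 0.21 and Ppp1r17 by 0.16 on the log2 scale (SE 0.04 to 0.05, adjusted p from 0.00115 to 0.0352). Stac was at -0.26 ± 0.08 (adjusted p = 0.0717), Homer3 at -0.16 ± 0.06 (0.231), Pcp2 at -0.14 ± 0.08 (0.433) and Slc1a6 at -0.07 ± 0.05 (0.636). All 10 fold changes had the same sign. Leaving out 1 library left 3 to 6 members called (2.47% to 4.58% of genes called), with 3 without WT replicate 3 or 4 or 175QK772T replicate 1, 2 or 4.

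Directly against 175Q, 9 members were higher in 175QK772T (1.19% of genes called, 1.12% higher). Stac was higher by 0.60 ± 0.08, Rgs8 by 0.57 ± 0.04, Itpka by 0.52 ± 0.05 and Pcp2 by 0.48 ± 0.08 on the log2 scale (adjusted p from 7.58e-06 to 0.00411). Homer3 at 0.42, Car8 at 0.36, Slc1a6 at 0.31, Calb1 at 0.27 and Ppp1r17 at 0.25 followed, and the 175QK772T range of each of the 9 lay above its 175Q range. The share of all genes whose ranges lie apart in this way was not computed. The 3 contrasts share their libraries, so their values are not independent of each other.

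The place of 175QK772T mice between the other genotypes was set on a scale where 0% is the WT mean and 100% the 175Q mean of log2 CPM. At 10 weeks the median over the 9 called members was 33%, and the members ran from 20.3 ± 23.3% for Slc1a6 and 24.7 ± 12.5% for Pcp2 (mean ± SD, n = 4) to 41 ± 16.8% for Ppp1r17 and 48.5 ± 10.2% for Calb1. The SD of single genes is as large as most distances between genes. Rgs8 stood at 36.6 ± 7.23%. This scale reuses the libraries of the 3 contrasts and is a description.

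**Figure D3:**
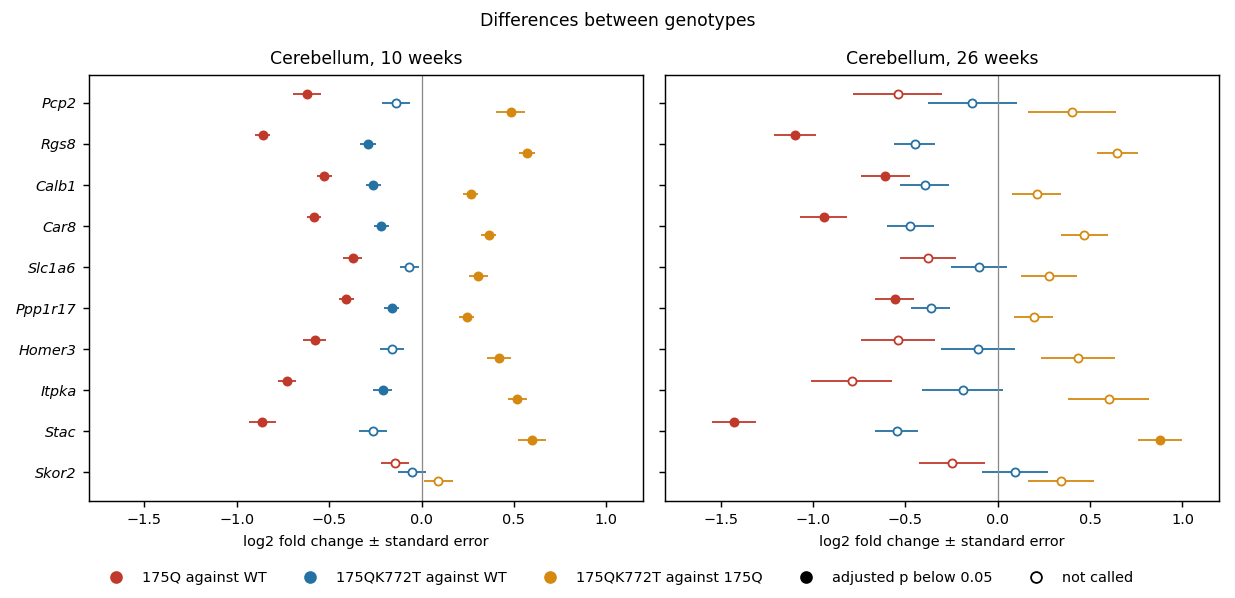
Log2 fold changes ± standard error of the 10 genes in cerebellum for the 3 contrasts at each age, 4 mice per genotype; filled points have an adjusted p below 0.05. At 10 weeks 175Q against WT runs from -0.86 to -0.14 and 175QK772T against WT from -0.29 to -0.05, and the standard errors are wider at 26 weeks.

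At 26 weeks the direction was the same but fewer members passed the test. Of the 10 members, 5 were lower in 175Q than in WT (3.01% of genes called, 2.12% lower): Stac by 1.43 (SE 0.12, adjusted p = 0.000103), Rgs8 by 1.10 (SE 0.11, 0.000407), Car8 by 0.94 (SE 0.13, 0.0027), Calb1 by 0.61 (SE 0.13, 0.0334) and Ppp1r17 by 0.56 (SE 0.11, 0.0183). Stac was at 14.01, 17.3, 17.7 and 17.9 CPM in WT, 5.77, 6.99, 6.21 and 5.87 in 175Q and 12.2, 10.8, 10.5 and 12.1 in 175QK772T. The ranges did not overlap, and 175Q stood at 37.2% of the WT mean. Rgs8 was at 1136, 1499, 1444 and 1387 CPM in WT, 617, 672, 661 and 603 in 175Q and 1120, 1004, 903 and 974 in 175QK772T, again without overlap.

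The members not called shared 1 pattern, and Calb1, which was called, showed it too. Calb1 was at 751 CPM in 175Q replicate 4, against 593 to 662 in the other 175Q libraries. In 175QK772T replicate 2 it was at 1054, against 656 to 708 in the rest of that group. Pcp2 was at 172, 197 and 179 CPM in 175Q replicates 1 to 3 and at 369 in replicate 4, above the 4 WT libraries at 315, 294, 352 and 338. In 175QK772T it was at 259, 225 and 244 CPM in replicates 1, 3 and 4 and at 491 in replicate 2. Slc1a6, Homer3, Itpka and Skor2 were also highest of their group in 175Q replicate 4, at 176, 334, 55.01 and 9.02 CPM, against at most 111, 180, 26.7 and 5.57 in the other 175Q libraries. Itpka there was below WT replicate 1 at 56.7. Car8 went the other way, with its lowest 175Q value, 732 CPM, in the same library, against 853 to 1043 in the other 3. These are the 2 libraries of high mitochondrial share; the part of that share in these values was not tested.

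Without these 2 libraries 9 of 10 members were lower in 175Q (13.5% of genes called), all but Skor2 at -0.43 ± 0.14 (adjusted p = 0.0617). Stac fell by 1.40, Itpka by 1.08, Rgs8 by 1.06, Car8 by 0.83, Pcp2 by 0.81, Homer3 by 0.78, Calb1 by 0.65, Slc1a6 by 0.55 and Ppp1r17 by 0.54 on the log2 scale (SE 0.06 to 0.12). Without 175Q replicate 4 alone 8 members were called (3.44% of genes called). Without WT replicate 2, 3 or 4 or 175Q replicate 1, 3 were called (1.03% to 1.19% of genes called): Rgs8, Car8 and Stac, which also passed in every other fit that left out 1 library.

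For 175QK772T against WT at 26 weeks edgeR called 0 members (0.298% of genes called); 5 had an unadjusted p below 0.05 (Rgs8, Calb1, Car8, Ppp1r17 and Stac), and DESeq2 called Rgs8, Car8 and Stac, of 1.97% of genes called by that tool. Without the 2 libraries 7 were lower: Calb1 by 0.56, Stac by 0.52, Ppp1r17 by 0.45, Rgs8 by 0.44, Car8 by 0.43, Pcp2 by 0.40 and Itpka by 0.36 (3.64% of genes called). Against 175Q, 1 member was higher in 175QK772T, Stac by 0.88 ± 0.12 (adjusted p = 0.0291; 0.0992% of genes called, 0.0887% higher), and Rgs8 was at 0.65 ± 0.11 (adjusted p = 0.0663). Stac lost its call when any 1 library of these groups but 175Q replicate 4 was left out. Without the 2 libraries 7 were higher (8.71% of genes called): Stac by 0.87, Itpka by 0.72, Rgs8 by 0.62, Homer3 by 0.53, Pcp2 by 0.41, Car8 by 0.40 and Slc1a6 by 0.37. Calb1 and Ppp1r17 were at 0.10 ± 0.07 and 0.09 ± 0.08 in that fit.

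On the scale from WT to 175Q, Stac stood at 38.4 ± 7.68%, Rgs8 at 40.9 ± 11.8% and Car8 at 49.7 ± 11.96% at 26 weeks (n = 4). Calb1 stood at 67.5 ± 53.2% and Ppp1r17 at 65.9 ± 40.7%. Without the 2 libraries these 2 genes stood at 84.9 ± 8.85% and 83.1 ± 25.01% (n = 3), against 37.4 ± 8.61% for Stac.

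No member passed the test of a different 175Q effect at the 2 ages (edgeR, 0 of 10; 0.0332% of genes called; unadjusted p below 0.05 for Stac and Car8). The 175Q effect on Stac was more negative at 26 weeks by 0.56 ± 0.13 on the log2 scale (adjusted p = 0.298); DESeq2 called it (adjusted p = 0.0231; 0.308% of genes called), and without the 2 libraries it was at -0.52 ± 0.13 (adjusted p = 0.0792). Car8 followed at -0.35 ± 0.13 (adjusted p = 0.593). The change between ages of the 175QK772T against 175Q difference was likewise called for 0 members by edgeR and DESeq2 (0.0142% of genes called), with Stac alone at an unadjusted p below 0.05.

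The members did not all move by the same amount within a library. Each member's log2 CPM was set against the mean of the other 9 in the same library. At 10 weeks Rgs8 and Stac stood 0.33 lower, and Itpka 0.18 lower, relative to the other members in 175Q than in WT, and the 4 values of one genotype did not overlap those of the other. Skor2 stood 0.47 higher, Slc1a6 0.22 higher and Ppp1r17 0.18 higher, also without overlap. Pcp2, Calb1, Car8 and Homer3 overlapped. At 26 weeks the order held for 4 genes without overlap: Stac at -0.77, Rgs8 at -0.41, Slc1a6 at 0.37 and Skor2 at 0.51. Without the 2 libraries of high mitochondrial share 7 genes did not overlap, with Itpka at -0.34, Calb1 at 0.18 and Ppp1r17 at 0.31 besides these 4. That leaves 3 libraries in 175Q, and ranges of fewer libraries separate more readily by chance. Each member is set against the others, so a large fall of 1 member raises the rest. The share of all genes without overlap was not computed, and these counts are a description.

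Other genes of the Purkinje cell were read from lists put together by function, also with earlier results of these data known. Of 13 genes of mGluR1 and calcium signalling, 9 fell and 0 rose in 175Q cerebellum at 10 weeks, with a median log2 fold change of -0.24. Over all genes in that contrast, 2330 of 20447 were called, 1393 of them lower. Atp2a3, a calcium pump of internal stores, fell by 0.57 (SE 0.05) and Inpp5a, an IP3 phosphatase, by 0.52 (SE 0.04). Of 12 other Purkinje-enriched genes 11 fell, with a median of -0.40: Gng13, a G protein subunit, by 0.96 (SE 0.06) and Pcp4, a calmodulin-binding peptide, by 0.86 (SE 0.05). Gng13 and Pcp4 thus changed as much as Rgs8 or more. Of 6 transcription factors 4 fell and 1 rose, with a median of -0.23; among those that fell were Rora by 0.21 (SE 0.03), Ebf2 by 0.49 (SE 0.09) and Lhx5 by 0.47 (SE 0.09).

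Against 175Q, 7 of the 13 signalling genes and 7 of the 12 other Purkinje-enriched genes were higher in 175QK772T at 10 weeks and 0 were lower (244 of all 20447 genes tested were called). Of the 6 transcription factors 0 were called by edgeR and 4 had an unadjusted p below 0.05, Rora, Ebf2 and Lhx5 among them. At 26 weeks 5 of 12 tested signalling genes were lower in 175Q than in WT, among them Atp2a3 by 0.63 (SE 0.15) and Inpp5a by 0.53 (SE 0.12). Of all 19156 genes tested in that contrast 576 were called. Of the other Purkinje-enriched genes 3 of 12 were called, and of the transcription factors Lhx5 alone, by 0.65 (SE 0.10). Gng13 and Pcp4 were at -0.68 ± 0.34 and -0.39 ± 0.34 then, neither of them called. Gng13 was at 58.5, 56.9, 58.7 and 184.9 CPM in 175Q replicates 1 to 4 and at 126 to 139 in WT, and Pcp4 at 29.1, 26.8, 26.9 and 92.5 in 175Q and 48.7 to 55.3 in WT. In both genes 175Q replicate 4 alone lay above WT, and the other 3 libraries lay below it.

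Without the 2 libraries of high mitochondrial share, 8 of 12 signalling genes and 11 of 12 other Purkinje-enriched genes were lower in 175Q at 26 weeks (2608 of all 19306 genes tested were called). Gng13 fell by 1.17 (SE 0.07, adjusted p = 5.57e-06) and Pcp4 by 0.89 (SE 0.11, adjusted p = 0.000428) in that fit, Atp2a3 by 0.77 (SE 0.10) and Inpp5a by 0.60 (SE 0.09). Without 175Q replicate 4 alone Gng13 fell by 1.11 (SE 0.24, adjusted p = 0.0299) and Pcp4 was at -0.84 ± 0.25 (adjusted p = 0.105). Both genes had been high in that library, so their values without it are not independent of that choice. Of the 6 transcription factors 2 were lower without the 2 libraries, Lhx5 by 0.64 (SE 0.10) and Lhx1 by 0.32 (SE 0.08), and Ebf1 was higher by 0.37 ± 0.07.

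Markers of other cerebellar cells were read beside these values. Of 12 granule cell markers 7 fell and 2 rose in 175Q at 10 weeks, and their summed level was 6713 to 7654 CPM in WT, 6136 to 6378 in 175Q and 6176 to 6770 in 175QK772T. Cbln3, the most abundant, fell by 0.37 (SE 0.05, adjusted p = 0.000186) in 175Q and by 0.31 (SE 0.05, adjusted p = 0.00302) in 175QK772T; between the mutants 0 of the 12 were called by edgeR and 2 had an unadjusted p below 0.05, with Cbln3 at 0.07 ± 0.05 (adjusted p = 0.697). Zic1, the next most abundant, was at -0.13 ± 0.04 (adjusted p = 0.0848) in 175Q. Of 10 markers of other cerebellar neurons 1 fell, of 10 astrocyte and Bergmann glia markers 3, of 10 oligodendrocyte markers 1, and of 8 microglial and 8 endothelial markers 0 in 175Q at 10 weeks by edgeR, with 1 unadjusted p below 0.05 in each of the last 2 lists. That contrast called 2330 of all 20447 genes tested, so counts of 1 of 10 are near the share over all genes. Abundant genes of these lists were not called: Lgi2 and Kit of other neurons were at 0.01 and 0.04, Slc1a2 and Slc1a3 of astrocytes at -0.15 and -0.07, Mbp of oligodendrocytes at -0.16, Csf1r of microglia at 0.03, and Flt1 and Slco1a4 of endothelium at -0.06 and 0.05. The summed level of astrocyte markers was 3840 to 3974 CPM in WT, 3536 to 3649 in 175Q and 3728 to 4131 in 175QK772T. That of oligodendrocyte markers was 6958 to 7801 in WT and 5878 to 7123 in 175Q, and that of microglial markers 130 to 150 in WT and 140 to 155 in 175Q.

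At 26 weeks 0 granule cell markers were lower in 175Q and 1 was higher (576 of all 19156 genes tested were called). Their summed levels were 5837 to 6870 CPM in WT and 5672 to 7068 in 175Q. Astrocyte and Bergmann glia markers moved more at this age: 3 of 10 fell, Slc1a3 among them by 0.65 (SE 0.11, adjusted p = 0.0105), and the summed level was 3750 to 4065 CPM in WT, 3299 to 3481 in 175QK772T and 2592 to 2884 in 175Q, without overlap. Of 10 oligodendrocyte markers 2 fell. Without the 2 libraries of high mitochondrial share 5 astrocyte markers fell, Slc1a3 by 0.54 (SE 0.07), and the summed level was 2796 to 2884 CPM in 175Q and 3336 to 3481 in 175QK772T. In that fit 5 oligodendrocyte markers fell, and of the granule cell markers 2 fell and 3 rose, while 2608 of all 19306 genes tested were called. The part of these cell types in the members' values was not tested.

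Outside the cerebellum several members are made by other neurons, and there the genotypes differed too. Over the 8 other sets of region and age, 26 pairs of member and set were lower and 6 higher in 175Q than in WT. In each forebrain set 8 members were tested, and 10 in brainstem and in medulla. At each age 4 were lower and 1 higher in cortex, and 5 and 1 in hippocampus. In striatum 2 were lower and 1 higher at 10 weeks, and 3 and 1 at 26 weeks. All 6 rises were of Slc1a6, in cortex, hippocampus and striatum at both ages. Of all genes tested, 38.2% were called in cortex at 10 weeks and 31.6% at 26 weeks, 19.6% and 40.8% in hippocampus and 32.7% and 45.4% in striatum, so single calls there stand against a high background. In striatum the count of members called was near that share at both ages.

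Itpka fell in 175Q in all 3 forebrain regions at both ages. In striatum at 26 weeks it was at 139, 128, 161 and 145 CPM in WT, 23.7, 17.97, 23.8 and 25.3 in 175Q and 59.97, 55.2, 56.02 and 62.4 in 175QK772T, 3 ranges far apart. It fell by 2.66 on the log2 scale in 175Q (SE 0.10, adjusted p = 4.86e-09) and by 1.29 in 175QK772T (SE 0.09, adjusted p = 3.17e-06), and the mutants differed by 1.37 ± 0.10 (adjusted p = 2.35e-05). In hippocampus it fell by 1.34 at 10 weeks and by 2.28 at 26 weeks in 175Q, and in striatum at 10 weeks by 1.16 (SE 0.06 to 0.11). In cortex it was at 176, 191, 186 and 176 CPM in WT at 10 weeks and 70.0, 77.1, 73.7 and 70.5 in 175Q, a fall of 1.32 (SE 0.05, adjusted p = 8.11e-12).

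The 26-week cortex library of WT replicate 1 stood apart. Itpka was at 47.4 CPM there and at 138, 158 and 155 in the other WT libraries, Stac at 9.33 against 0.427 to 0.957 and Slc1a6 at 13.1 against 7.27 to 7.84. With that library the fall of Itpka in 175Q cortex was 1.92 (SE 0.29), and without it 2.23 (SE 0.07, adjusted p = 1.82e-13). Its 175QK772T against WT value was -0.98 ± 0.29 (adjusted p = 0.055) with it and -1.28 ± 0.07 (adjusted p = 7.81e-10) without it. Against 175Q, Itpka was higher in 175QK772T cortex by 0.94 ± 0.29 (adjusted p = 0.0924) with the library and by 0.95 ± 0.07 (adjusted p = 8.58e-08) without it. The library was seen to stand apart in Itpka itself, so the values without it are not independent of that choice.

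Rgs8 fell in 175Q in all 3 forebrain regions at both ages and in medulla. In cortex at 10 weeks it was at 98.3, 109, 91.0 and 92.9 CPM in WT, 46.6, 44.1, 43.6 and 42.8 in 175Q and 49.9, 52.4, 51.6 and 49.1 in 175QK772T, so that both mutants lay far below WT and close to each other. The falls were 1.14 in 175Q and 0.95 in 175QK772T (SE 0.05 each). At 26 weeks they were 1.45 and 0.96 in cortex (SE 0.06 each), and the mutants differed by 0.49 ± 0.06 (adjusted p = 0.0039). In medulla Rgs8 fell by 0.31 (SE 0.06, adjusted p = 0.00313).

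Homer3 and Stac fell in hippocampus. Homer3 was at 56.05, 62.1, 44.9 and 46.7 CPM in WT, 18.97, 22.02, 19.4 and 23.6 in 175Q and 20.6, 22.7, 26.9 and 24.1 in 175QK772T at 10 weeks. It fell by 1.32 in 175Q and 1.13 in 175QK772T (SE 0.11 each), and by 1.76 and 1.56 at 26 weeks. The 2 mutants were not called apart, at 0.19 ± 0.11 (adjusted p = 0.765) and 0.20 ± 0.11 (adjusted p = 0.26). Stac fell there by 1.40 at 10 weeks and 2.06 at 26 weeks in 175Q, and in medulla by 1.43 (SE 0.12), where it was at 10.4 to 12.6 CPM in WT, 3.42 to 5.04 in 175Q and 5.69 to 7.02 in 175QK772T. Calb1 fell by 0.70 in hippocampus, 0.90 in striatum and 0.89 in medulla at 26 weeks (SE 0.12 to 0.17).

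**Figure D4:**
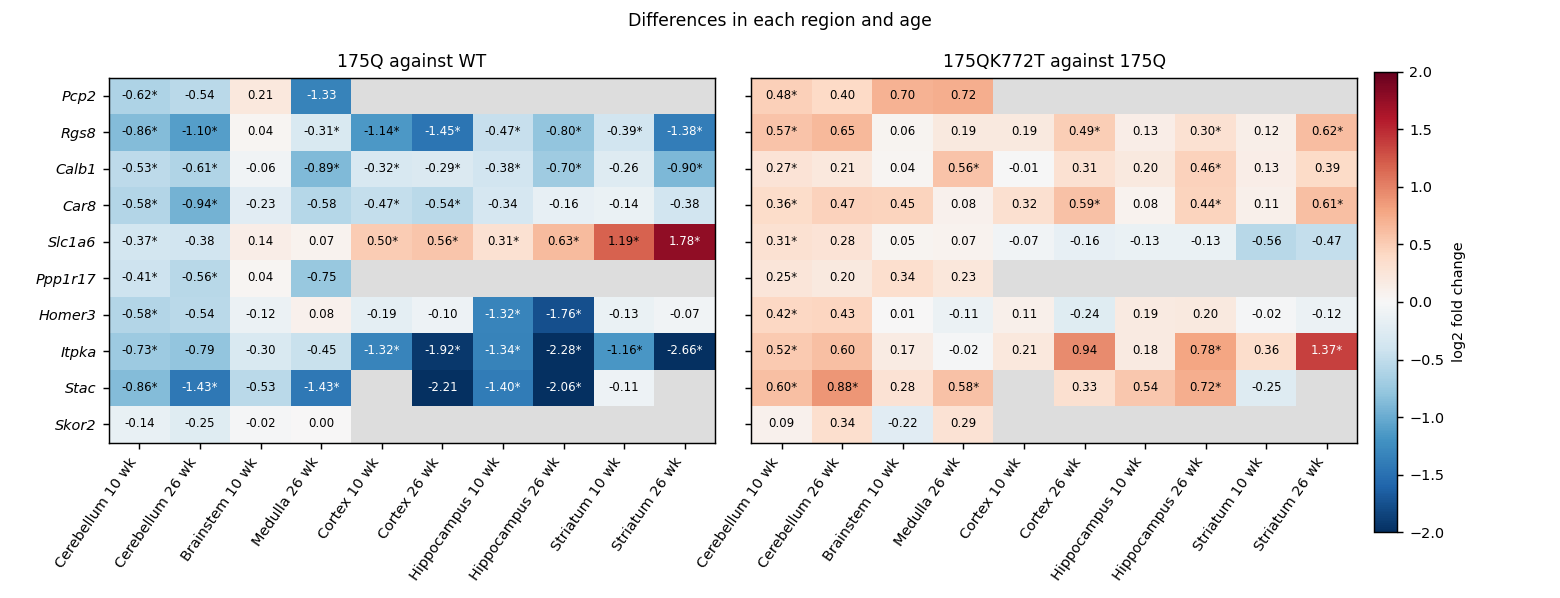
Log2 fold changes of the 10 genes in each region and age for 175Q against WT and 175QK772T against 175Q, with an asterisk where the adjusted p is below 0.05 and grey where the mean was under 1 CPM; colours end at -2 and 2. Slc1a6 is above 0 in the forebrain and below 0 in the cerebellum in 175Q, and Itpka reaches -2.66 in striatum at 26 weeks.

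Slc1a6 moved in opposite directions in cerebellum and forebrain. In striatum at 26 weeks it was at 2.99, 2.27, 5.10 and 2.95 CPM in WT, 13.03, 10.2, 9.62 and 11.99 in 175Q and 8.95, 8.49, 8.94 and 6.30 in 175QK772T. It rose by 1.78 ± 0.21 in 175Q (adjusted p = 2.53e-05) and by 1.30 ± 0.21 in 175QK772T (adjusted p = 0.000767), with the mutants at a difference of -0.47 ± 0.20 (adjusted p = 0.138). At 10 weeks the rise in 175Q striatum was 1.19 ± 0.15, and in cortex and hippocampus rises ran from 0.31 to 0.63. WT levels of Slc1a6 in forebrain were low, at 1.48 to 4.15 RPKM, against 64.1 in cerebellum at 10 weeks.

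**Figure D5:**
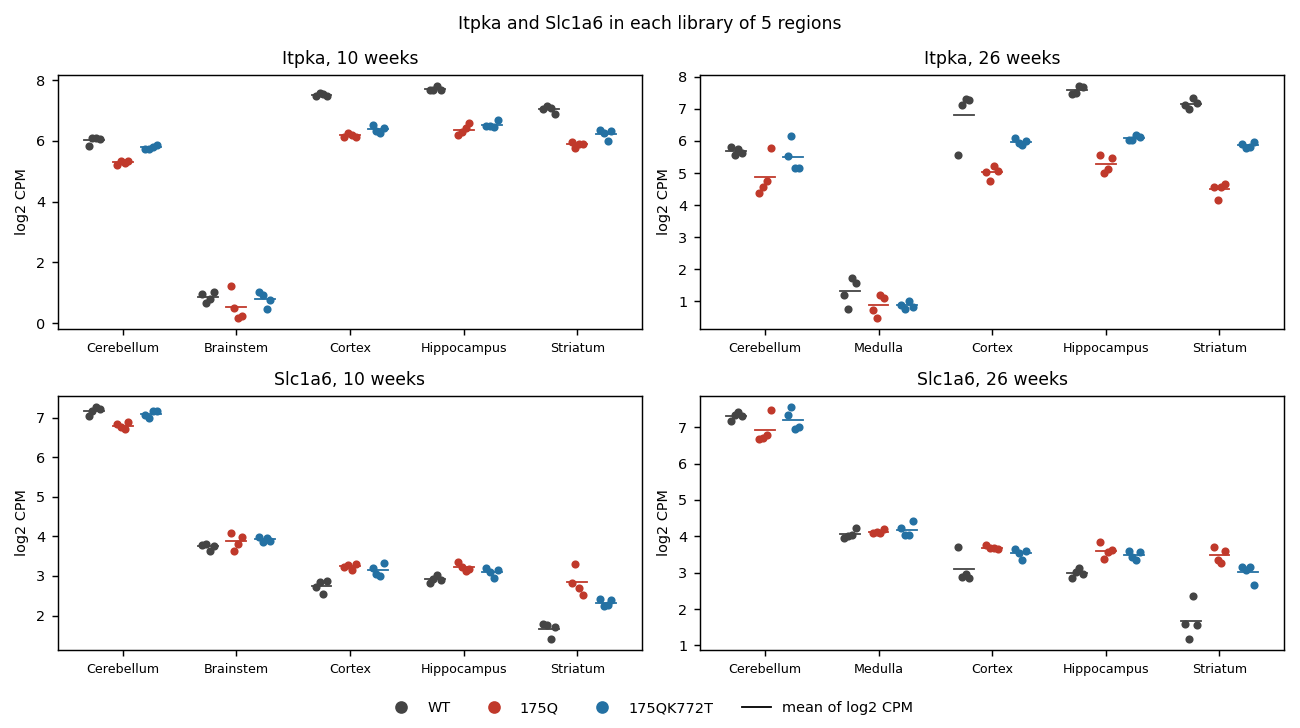
Log2 CPM of Itpka and Slc1a6 in each library of 5 regions by genotype and age, with lines at the group means; the vertical axes differ between panels and do not start at 0. In cortex, hippocampus and striatum the group means of 175Q lie below WT for Itpka and above WT for Slc1a6.

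Whether the 175Q effect differed between regions of the same mice was tested as an interaction. At 10 weeks 16 of 40 pairs of member and region were called (4.09% of genes against brainstem, 17.6% against cortex, 9.17% against hippocampus and 22% against striatum). Members near 0 in forebrain could hardly show a difference there at either age. At 10 weeks the SE was 6933 for Skor2 against cortex and 2.09 for Pcp2 against striatum. A pair not called is therefore not a shared effect. The Slc1a6 effect was more negative in cerebellum than in all 4 other regions, from -0.52 ± 0.12 against brainstem to -1.56 ± 0.14 against striatum. For Rgs8 it was more negative than in brainstem (-0.92 ± 0.09), hippocampus (-0.41 ± 0.09) and striatum (-0.47 ± 0.09) and less negative than in cortex (0.28 ± 0.09). For Itpka it was less negative than in cortex and hippocampus (0.60 ± 0.12 each) and striatum (0.44 ± 0.12). The Homer3 effect was less negative than in hippocampus (0.73 ± 0.13) and more negative than in brainstem, cortex and striatum (-0.47, -0.39 and -0.45).

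At 26 weeks 8 of 40 were called (0.917% of genes against medulla, 10.6% against cortex, 7.88% against hippocampus and 19.2% against striatum). They were Slc1a6 against the 3 forebrain regions (-0.91, -0.99 and -2.13), Itpka against the same (1.11, 1.51 and 1.88), Homer3 against hippocampus (1.26) and Rgs8 against medulla (-0.81 ± 0.14). Without the 2 cerebellum libraries and the cortex library of WT replicate 1, 15 were called (2.75% of genes against medulla, 14.4% against cortex, 12.1% against hippocampus and 24.5% against striatum). The 8 pairs were among them, joined by Slc1a6, Homer3 and Itpka against medulla (-0.63, -0.91 and -0.65) and by Homer3 and Stac against cortex (-0.99 and -1.02) and striatum (-0.75 and -1.15). With all libraries Stac against cortex was at 0.58 ± 0.65 (adjusted p = 0.608). The libraries left out had stood apart in members themselves, Stac in cortex among them. Calls gained without them are not independent of that choice and are a description.

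In brainstem edgeR called 0 of 10 members in any contrast (2.93% of genes in 175Q against WT, 0.0331% in 175QK772T against WT and 0.0568% between the mutants); Stac had an unadjusted p below 0.05 in 175Q against WT and was called by DESeq2 (6.31% of genes called), and no other member met either mark. In 175Q replicate 1 of brainstem Pcp2 was at 5.15 CPM and Ppp1r17 at 6.49, against 0.956 to 1.29 and 0.881 to 1.596 in the other 175Q libraries, 0.798 to 2.44 and 1.38 to 3.12 in WT and 3.02 to 3.98 and 2.70 to 4.28 in 175QK772T. With that library the 175Q against WT values were 0.21 ± 0.44 for Pcp2, 0.04 ± 0.47 for Ppp1r17 and -0.23 ± 0.27 for Car8, and without it they were -0.62 ± 0.29, -0.91 ± 0.28 and -0.68 ± 0.19, so that Pcp2 and Ppp1r17 turned in sign. Between the mutants they went from 0.70 ± 0.43, 0.34 ± 0.45 and 0.45 ± 0.27 to 1.68 ± 0.30, 1.47 ± 0.30 and 0.98 ± 0.20. That library had stood apart in Pcp2 and Ppp1r17 themselves, so the values without it are not independent of that choice. No member was called without it either (edgeR, 0 of 10 in each contrast, with 4 or 5 at an unadjusted p below 0.05; DESeq2 was not run on these libraries). The granule cell genes Cbln3 and Gabra6 were at 56.4 and 27.3 CPM in that library, against at most 26.6 and 10.7 in the other 11. Medulla of WT replicate 4 had the same features, with Pcp2 at 6.28 and Car8 at 45.8 CPM beside Cbln3 at 44.5 and Gabra6 at 17.1, against at most 15.6 and 5.32 in the other 11. The part of the granule cell genes' source in the values of these 2 libraries was not tested. In medulla 3 members were lower in 175Q (18.5% of genes called), Rgs8, Calb1 and Stac, and all 3 stayed called without WT replicate 4 (13.6% of genes called).

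With K772T, 22 pairs of member and set were called against WT outside the cerebellum, 18 lower and 4 higher. Again 8 members were tested in each forebrain set and 10 in brainstem and in medulla. The 4 that were higher were all of Slc1a6, and those that were lower were of Rgs8, Itpka, Homer3, Stac and Calb1. Against WT the share of all genes called was 25.9%, 10.8% and 19% in cortex, hippocampus and striatum at 10 weeks, 8.83%, 19% and 23.4% there at 26 weeks and 2.08% in medulla. Against 175Q 12 pairs were called, all higher in 175QK772T and all at 26 weeks. These were Rgs8, Car8 and Itpka in striatum, the same 3 with Calb1 and Stac in hippocampus, Rgs8 and Car8 in cortex, and Calb1 and Stac in medulla. The background of genes called between the mutants was 3.46% in cortex, 15.7% in hippocampus, 13.6% in striatum and 9.46% in medulla. Without the cortex library of WT replicate 1, Calb1 (0.31 ± 0.06) and Itpka were called in cortex as well, 4 in all (23.4% of genes called). That library had stood apart in members, Itpka among them. At 10 weeks edgeR called 0 members between the mutants in cortex, hippocampus and striatum (1.05%, 0.0332% and 0.600% of genes called). There, 3 members in each region had an unadjusted p below 0.05, and DESeq2 called 3 in cortex (Rgs8, Car8 and Itpka; 3.80% of genes called), 0 in hippocampus and 2 in striatum (Slc1a6 and Itpka; 3.07% of genes called).

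Each genotype had mice of both sexes at each age, and sex was a term in each fit. The sexes were not balanced between genotypes at 10 weeks, where replicate 4 was the only male of 175QK772T. In cerebellum edgeR called 0 members for sex at either age, of 21 and 8 genes called in all, and 2 members at 10 weeks and 4 at 26 weeks had an unadjusted p below 0.05. At 10 weeks they were Rgs8 and Homer3, higher in males. At 26 weeks they were Pcp2, Slc1a6, Itpka and Skor2, lower in males by 0.30 to 0.60 on the log2 scale, and both libraries of high mitochondrial share, in which these genes were high, came from females. Without those 2 libraries edgeR again called 0 members for sex, and 1 had an unadjusted p below 0.05, Itpka at -0.28 ± 0.06 (adjusted p = 0.292).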

How the data were processed

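Polyadenylated RNA of 5 brain regions of each mouse was sequenced as 150-nt read pairs, per the labels' protocols. The submitters' processing notes name bcl2fastq 2.20.0, Trimmomatic 0.33, HISAT2 2.1.0, featureCounts of Subread 1.6.2 and the build GRCm38. The authors deposited raw read-pair counts per gene; per the file headers, pairs at 10 weeks were counted on the reverse strand with both ends aligned and a mapping quality of at least 10, while the settings at 26 weeks are not given in the sources used here. At 26 weeks the column names give another repeat length than the titles and genotype field, and the genotype field was used.

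Counts of each region and age (12 libraries) were filtered with filterByExpr, scaled by TMM and tested with edgeR 4.0.16 (quasi-likelihood, genotype plus sex; R 4.3.3) with Benjamini-Hochberg adjustment over all genes and a threshold of 0.05. Effects in different regions were compared in 1 model with the mouse as a block, and ages by an interaction. CPM used TMM-scaled sizes, RPKM the deposited gene length, and log2 CPM a prior count of 2. The script was checked on simulated counts. Alternatives were DESeq2 1.42.0, RLE scaling, no filter, fits without sex, fits with a replicate block, leaving out each library, and leaving out libraries that stood apart, some of these chosen after seeing the data. All 10 members are named; of other Purkinje lists the 3 genes of smallest adjusted p at 10 weeks, and of other cell types the 2 most abundant, except that values of some of these genes are not reported here. The members and lists were chosen with earlier results of these data known. The replicates are separate mice, and no 2 of the 180 replicate pairs compared were identical.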

Additional observations from a re-analysis of the deposited data

Results flagged for a closer look

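The highest and lowest value were compared with the rest in 240 sets, each of 1 member in 1 group of 4 libraries, and 27 values stood apart by a test that chance meets in about 0.05 of sets. In cerebellum at 26 weeks these were, in 175Q replicate 4, Pcp2 at 369 CPM, Homer3 at 334, Slc1a6 at 176 and Skor2 at 9.02, and in 175QK772T replicate 2, Pcp2 at 491 and Calb1 at 1054. In WT cerebellum they were Calb1 at 1064 CPM in replicate 3 and Stac at 14.01 in replicate 1 at 26 weeks, and Itpka at 56.98 in replicate 1 at 10 weeks. In brainstem 175Q replicate 1 had Pcp2 at 5.15 CPM, Ppp1r17 at 6.49, Rgs8 at 104.7 and Calb1 at 58.6, and 175QK772T replicate 2 had Calb1 at 59.98.

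In medulla WT replicate 4 had Pcp2 at 6.28 CPM, Ppp1r17 at 5.67, Car8 at 45.8 and Homer3 at 22.4, 175QK772T replicate 2 had Homer3 at 14.5 and 175Q replicate 4 had Slc1a6 at 18.3. In cortex at 26 weeks WT replicate 1 had Stac at 9.33 CPM and Slc1a6 at 13.1. In hippocampus at 10 weeks Itpka was at 223 CPM in WT replicate 3 and 102 in 175QK772T replicate 4. In striatum Calb1 was at 150.1 CPM in WT replicate 4 at 10 weeks and 99.95 in 175Q replicate 4 at 26 weeks, and Rgs8 at 175 in 175QK772T replicate 4 at 26 weeks.

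The 175Q effect differed between cerebellum and another region in 24 of 80 tests of that difference. The 80 include members near 0 in forebrain, which could hardly show a difference there. In log2 units, cerebellum minus the other region, Rgs8 was at -0.92 for brainstem, 0.28 for cortex, -0.41 for hippocampus and -0.47 for striatum at 10 weeks, and at -0.81 for medulla at 26 weeks. Calb1 was at -0.47 for brainstem. Slc1a6 was at -0.52 for brainstem, -0.87 for cortex, -0.69 for hippocampus and -1.56 for striatum at 10 weeks, and at -0.91, -0.99 and -2.13 for cortex, hippocampus and striatum at 26 weeks. Homer3 was at -0.47 for brainstem, -0.39 for cortex, 0.73 for hippocampus and -0.45 for striatum at 10 weeks, and at 1.26 for hippocampus at 26 weeks. Itpka was at 0.60 for cortex, 0.60 for hippocampus and 0.44 for striatum at 10 weeks, and at 1.11, 1.51 and 1.88 for them at 26 weeks.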

How the results depend on the processing

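The counts of members called in 10-week cerebellum kept their direction. For 175Q against WT, leaving out 1 library gave 9 to 9 members (9 with all), and for 175QK772T against 175Q 8 to 9 (9 with all). For 175QK772T against WT it gave 3 to 6 (5 with all), and no filter on low counts gave 8. At 26 weeks 175Q against WT (5) became 8 without a filter, 9 without the 2 libraries of high mitochondrial share and 3 to 8 with 1 library left out. There 175QK772T against WT (0) became 3 with DESeq2, 7 without the 2 libraries and 0 to 0 with 1 left out, and 175QK772T against 175Q (1) became 3 with DESeq2, 3 without a filter, 7 without the 2 libraries and 0 to 1 with 1 left out. Skor2 in 175QK772T against WT at 26 weeks turned from 0.09 to -0.018 without WT replicate 1, and ran from -0.018 to 0.15 with 1 library left out. Over other regions, 175QK772T against WT (22) became 34 without a filter and 175QK772T against 175Q (12) became 19 with DESeq2 and 30 without a filter. The all-gene counts that follow are of cerebellum, where calls over all genes rose under both settings too. Whether the members' counts in other regions only follow such a general rise was not tested. With 1 library left out these 2 contrasts gave 21 to 24 and 9 to 13, and 175Q against WT (32) gave 30 to 33. The change of the 175Q effect with age (0) became 1 with DESeq2, and both age tests gave 0 to 0 with 1 library left out. Region differences gave 11 to 15 (16) and 8 to 10 (8) with 1 mouse left out, and 15 at 26 weeks without the libraries that stood apart, in part by values of members. WT regions gave 40 to 40 and 37 to 40. Relative levels at 26 weeks (4) became 7 without the 2 libraries, where 175Q had 3 libraries. The cause of these moves was not tested. RLE scaling and leaving out the sex term moved no count of members by more than 1.5 times.

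Over all genes in cerebellum at 10 weeks, 175QK772T against WT called 826 genes, 1370 with DESeq2 and 1418 without a filter, and 175QK772T against 175Q called 244, 572 and 942. At 26 weeks 175Q against WT called 576, 1314 and 1042, with 2608 without the 2 libraries. There 175QK772T against WT called 57, 377 and 447, with 702, and 175QK772T against 175Q called 19, 404 with DESeq2 and 252 without a filter, with 1682 without the 2 libraries and 12 without the sex term.

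Replicate numbers did not pair the mice: deviations of same-numbered cerebellum libraries correlated from -0.144 to 0.196 at 10 weeks and from -0.565 to 0.174 at 26 weeks. With the replicate block, 0 members were called in 175QK772T against 175Q at 26 weeks, and that contrast called 6 genes in all there and 143 at 10 weeks; the other counts of members stayed within 1.5 times.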
